A study of Homo sapiens with 4 samples.

Results

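Genes of the actin cytoskeleton and of the smooth muscle contractile apparatus were followed in U251 cells, an established human glioblastoma (GBM) cell line, after knockdown of the protein arginine methyltransferase PRMT3. The set was given as 45 gene symbols, and its members are the rows of the deposited gene count table that carry one of these symbols. The table held 43 of them among 15575 genes, and all 43 passed the filter on low counts. MYL9, a myosin light chain, and LMOD1, a leiomodin, were not analysed here. RNA-seq compared 2 libraries of Ctrl cells, which carried the pGreen lentiviral control, with 2 libraries of PRMT3-KD cells, which carried PRMT3 shRNA, both 72 h after lentivirus. All libraries come from this 1 cell line. The labels do not name the hairpin, and they do not say whether the libraries of a group came from separate cultures, so p-values measure the spread between these libraries, which may be technical.

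Actin filaments are polymers of actin that tropomyosins coat, cofilins sever, and filamins and alpha-actinins cross-link. Myosin II pulls on them once its light chains are phosphorylated, a step that MYLK carries out and that the myosin phosphatase subunit PPP1R12A and the kinases ROCK1 and ROCK2 oppose or favour. The 2 coactivators MKL1 and MKL2 (MRTF-A and MRTF-B) bind monomeric actin. When monomers are used up they enter the nucleus and act with serum response factor (SRF) at CArG boxes, which are runs of A and T bases flanked by CC and GG. Many genes of the contractile apparatus, SRF itself included, are known targets of this pathway. ACTA2, ACTG2, CNN1 and TAGLN are best known as markers of smooth muscle and of myofibroblasts, and they are also expressed at lower levels by many cultured cells that form stress fibres.

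Among the members with a promoter in the RefSeq table, ACTG2 held 2 CArG boxes, and its promoter is shown because ACTG2 had the smallest adjusted p of all members in the comparison below. The window runs from 250 bases before to 50 bases after the transcription start, at chr2:73892758-73893057 on the plus strand of GRCh38.p14, with the boxes in capitals.

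ACTG2 promoter: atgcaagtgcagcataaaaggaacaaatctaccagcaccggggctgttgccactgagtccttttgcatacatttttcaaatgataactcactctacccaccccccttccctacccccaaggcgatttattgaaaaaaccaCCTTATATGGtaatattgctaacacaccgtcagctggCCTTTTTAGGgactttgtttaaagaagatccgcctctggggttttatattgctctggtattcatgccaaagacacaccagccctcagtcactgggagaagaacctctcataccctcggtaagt

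The first box began 110 bases and the second 73 bases before the start. Further windows of 30 bases, a box with 10 bases on each side, are given for CNN2, whose level rose, for the cytoplasmic actin ACTG1, for MYLK, whose level was low in 1 of the PRMT3-KD libraries, and for SRF, which carries a pair of overlapping windows at its own start. They lie on GRCh38.p14 at chr19:1026509-1026538 (plus strand), chr17:81512874-81512903 (minus), chr3:123620623-123620652 (minus), chr6:43171229-43171258 (plus) and chr6:43171249-43171278 (plus), in this order.
CNN2: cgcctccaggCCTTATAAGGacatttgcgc
ACTG1: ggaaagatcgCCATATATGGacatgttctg
MYLK: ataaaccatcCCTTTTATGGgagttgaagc
SRF, first box: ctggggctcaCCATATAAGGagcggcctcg
SRF, second box: agcggcctcgCCATAAAAGGaaacattgta

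The libraries held between 24804250 and 29756313 counts in total. PRMT3 had 535 counts in each Ctrl library against 77 and 45 in PRMT3-KD, and its expression fell by 3.08 on the log2 scale (edgeR adjusted p = 0.0177), so the labels hold for the targeted gene. The 2 Ctrl libraries were close to each other and the 2 PRMT3-KD libraries were not, with chi-square values per degree of freedom of 1.41 and 66.0 when the counts of each pair were compared over genes. The edgeR biological coefficient of variation was 0.0105 within Ctrl and 0.204 within PRMT3-KD, while the test shares 1 estimate of the spread between the groups. Values below are CPM (counts scaled to the library size) on edgeR's TMM scale, and a gene is called higher or lower when its edgeR quasi-likelihood adjusted p is under 0.05 over 13172 genes and its change is over 1.5-fold. As RNA was taken from whole cultures, a change in the share of cells that express a gene cannot be told apart from a change in RNA per cell.

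The expression of 5 members rose in PRMT3-KD cells, and no member was called lower. The 5 were ACTG2, CNN1 and TAGLN, which are smooth muscle markers, CNN2, the calponin of non-muscle cells, and ZYX, the adhesion and stress fibre protein zyxin. Over all 13172 genes, 4.97% were called higher and 5.97% lower. By adjusted p alone 6 of 43 members rose, RHOB being the sixth, beside 8.39% of genes that rose and 8.91% that fell. At an unadjusted p under 0.05 in edgeR, 15 members differed, of which PPP1R12A was the single lower one, beside 4950 of all genes. The members' median log2 fold change was 0.18, with a range from -0.57 for FLNC to 2.82 for CNN1, and the median over all genes tested was 0.0055. Both PRMT3-KD libraries lay above both Ctrl libraries in 21 members and below in 4, and over all genes tested 33.3% lay above and 33.8% below. ACTG2 and CNN1 were already known to be among the large increases when the set was named, so the count of members called is a description.

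**Figure D1:**
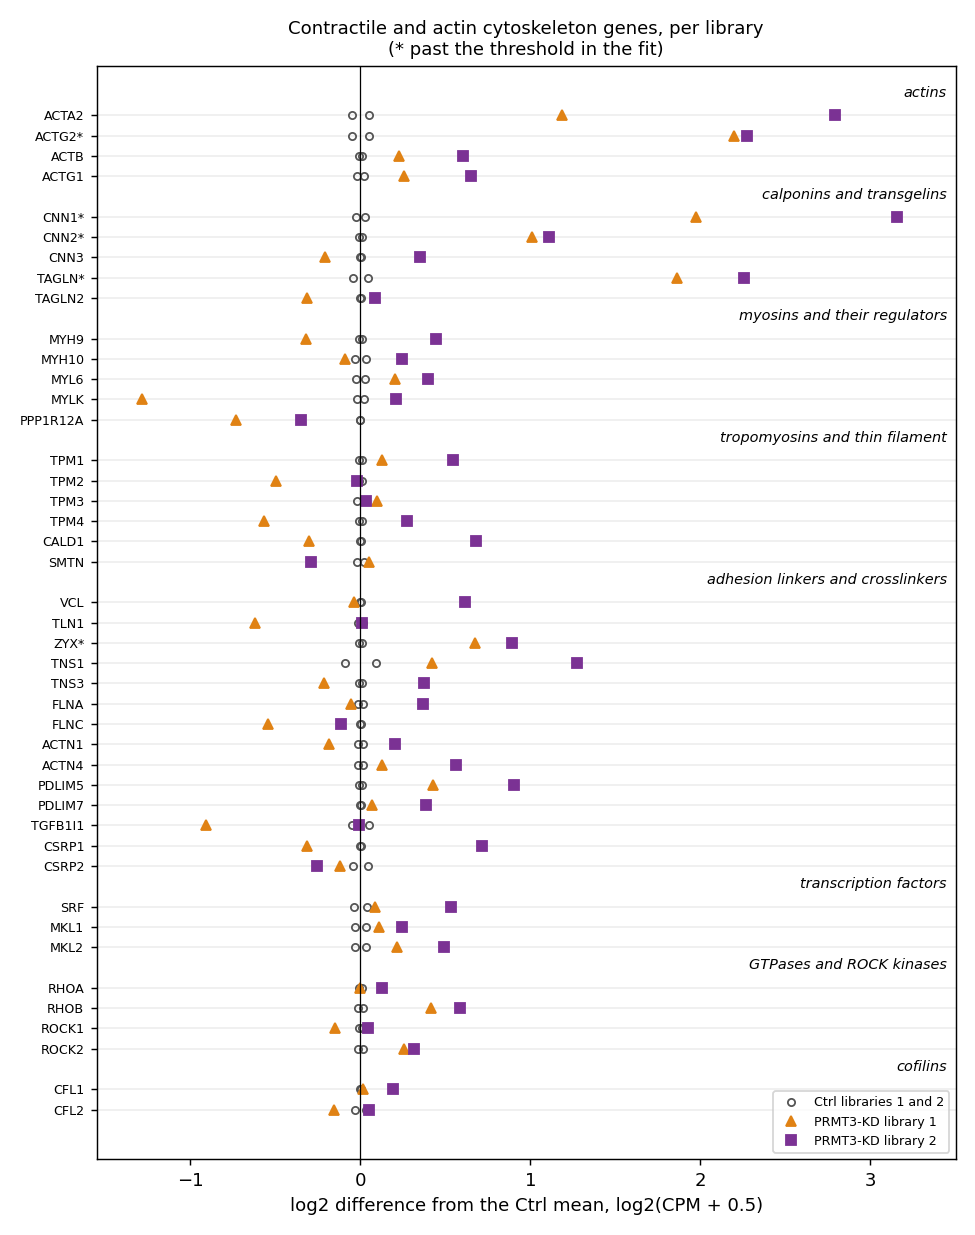
Each row is 1 of the 43 genes, grouped by role, and the x axis is the log2 difference of each library from the Ctrl mean on the log2(CPM + 0.5) scale, with open circles for the Ctrl libraries, triangles for PRMT3-KD library 1 and squares for PRMT3-KD library 2. The 5 starred genes passed the threshold, 18 genes have groups that overlap, and the squares lie to the right of the triangles in 40 of 43 rows.

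The calls depended on the Ctrl libraries. Without Ctrl library 1 or Ctrl library 2, no gene of the table passed the threshold in edgeR, with lowest adjusted p-values of 0.076 and 0.054 and with 7 and 8 members at an unadjusted p under 0.05 beside 1842 of 13402 and 1868 of 13420 genes, because the spread is then taken from the PRMT3-KD pair alone. Without PRMT3-KD library 1, 14 members were higher and none lower, beside 3066 of 13408 genes called in either direction. Without PRMT3-KD library 2, 6 members were higher and 4 lower (MYLK, PPP1R12A, TGFB1I1 and TLN1), beside 2989 of 13423 genes, so the members' share was near that of all genes. In each of these last 2 fits the lone PRMT3-KD library was assumed to vary as the Ctrl pair did. ACTG2, CNN1, TAGLN, CNN2 and ZYX were among the members called higher in both.

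**Figure D2:**
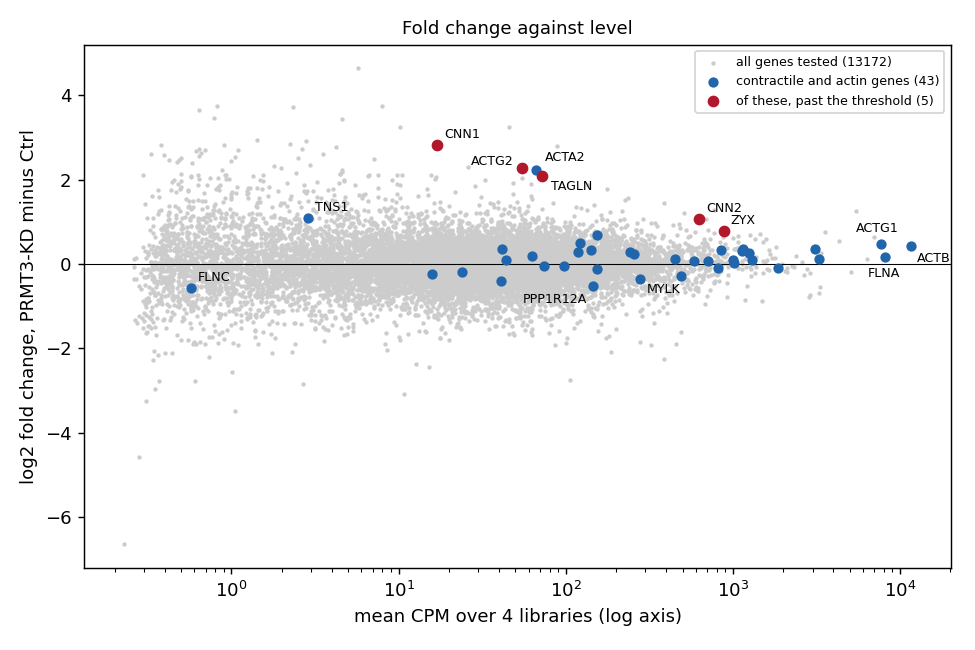
The x axis is the mean CPM over the 4 libraries on a log axis and the y axis is the log2 fold change, PRMT3-KD minus Ctrl, for all 13172 genes tested (grey), the 43 members (blue) and the 5 members past the threshold (red). The largest increases are those of members with low or moderate counts (CNN1, ACTG2, ACTA2 and TAGLN), while ACTB, ACTG1 and FLNA, at the right end of the axis, have log2 fold changes under 0.5.

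For each of the 4 actins both PRMT3-KD values exceeded both Ctrl values, as for 33.3% of all genes tested. Of the 4 actins 1, ACTG2, passed the threshold, beside 4.97% of all genes tested that were called higher. ACTG2 (ENSG00000163017, GRCh37 chromosome 2, 74119441 to 74146992), the gamma actin of enteric smooth muscle, had 18.2 and 19.6 CPM in Ctrl against 88.5 and 93.5 CPM in PRMT3-KD. The 2 PRMT3-KD values lay close together and far above Ctrl. The group means were 18.9 ± 0.968 CPM and 91.0 ± 3.54 CPM, respectively (± SD, with n = 2 libraries each). This is an increase of 2.27 on the log2 scale (SE 0.0883, edgeR adjusted p = 0.0140). These levels rest on 505 and 539 counts in Ctrl against 2248 and 2656 in PRMT3-KD.

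ACTA2 (ENSG00000107796, GRCh37 chromosome 10, 90694831 to 90751096), the alpha actin of vascular smooth muscle, had 22.5 and 24.1 CPM in Ctrl and 53.7 and 164 CPM in PRMT3-KD. The groups did not overlap, and PRMT3-KD library 2 lay far above library 1. The log2 fold change was 2.22, about that of ACTG2, but with an SE of 0.563 the change did not pass in edgeR (adjusted p = 0.0624). It did pass with DESeq2, with limma-voom with a variance for each group, and with the replicate number as a block. Over these and the other changes of method the adjusted p of ACTA2 ran from 0.00529 to 0.0633, and with 1 library left out the log2 fold change ran from 1.20 to 2.82. On the other strand, exons of ACTA2-AS1 cover 29.1% of the exons of ACTA2 and exons of FAS a smaller part, and whether the counting used strand is not given in the sources used here. FAS had 404 and 425 counts in Ctrl against 755 and 660 in PRMT3-KD. It was called higher, with a log2 fold change of 0.82 (edgeR adjusted p = 0.0365). FAS counts were lower in PRMT3-KD library 2 than in library 1, whereas ACTA2 had 1364 counts in library 1 and 4663 in library 2. The level of ACTA2-AS1 was not examined, and the part of reads from the other strand in the ACTA2 counts was not tested.

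ACTB and ACTG1, the cytoplasmic beta and gamma actins of non-muscle cells, had log2 fold changes of 0.43 and 0.47 and did not pass (edgeR adjusted p = 0.112 and 0.0987). ACTB had 9913 and 10050 CPM in Ctrl and 11660 and 15180 CPM in PRMT3-KD. ACTG1 had 6365 and 6550 CPM in Ctrl and 7720 and 10120 CPM in PRMT3-KD. Both genes were thus in the same order over the libraries, with PRMT3-KD library 2 the highest. Of the 50-base stretches of ACTB transcripts, 10.9% also occur in transcripts of 22 other genes, so part of its counts is uncertain, and for ACTG2, ACTA2, CNN1, TAGLN and ZYX this share was at most 0.138%.

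**Figure D3:**
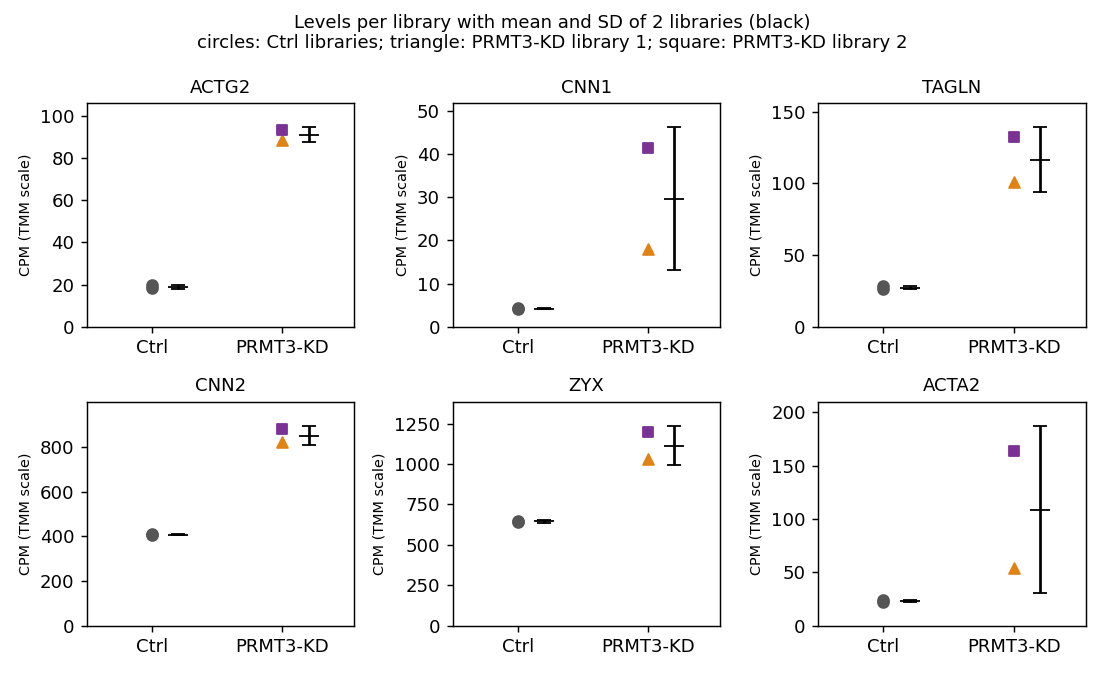
Each panel gives the CPM on the TMM scale of 1 gene in the 4 libraries, as circles for Ctrl, a triangle for PRMT3-KD library 1 and a square for PRMT3-KD library 2, with the mean and SD of each pair in black. In each panel both PRMT3-KD points lie above both Ctrl points, and the PRMT3-KD pair is close together for ACTG2 and CNN2 and wide apart for CNN1 and ACTA2.

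Of the 5 calponins and transgelins, which bind along actin filaments, CNN1, CNN2 and TAGLN rose, and CNN3 and TAGLN2 did not pass. Over all genes tested, 4.97% were called higher. CNN1 (ENSG00000130176, GRCh37 chromosome 19, 11649582 to 11661138), calponin of smooth muscle, had 4.11 and 4.29 CPM in Ctrl and 18.0 and 41.4 CPM in PRMT3-KD. Every PRMT3-KD value was above Ctrl, though the PRMT3-KD values differed from each other by 1.18 on the log2 scale. Its log2 fold change of 2.82 (SE 0.456, edgeR adjusted p = 0.0290) was the largest among the members, and with 1 library left out it ran from 2.09 to 3.30. TAGLN (ENSG00000149591, GRCh37 chromosome 11, 117070086 to 117078180), or SM22-alpha, an early marker of smooth muscle, had 28.3 and 26.5 CPM in Ctrl and 101 and 133 CPM in PRMT3-KD. The groups were well apart, with a log2 fold change of 2.09 (SE 0.161, edgeR adjusted p = 0.0142). A gene without a symbol, ENSG00000280143, overlaps 38.1% of the exons of TAGLN on the same strand, so that even counting by strand would not separate the reads of these exons. PCSK7 overlaps 34.1% of them on the other strand, and its own log2 fold change was 0.10 (edgeR adjusted p = 0.717).

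CNN2 (ENSG00000064666, GRCh37 chromosome 19, 1026585 to 1039067) had 405 and 411 CPM in Ctrl and 820 and 880 CPM in PRMT3-KD. All 4 values fell into tight pairs, and the log2 fold change was 1.06 (SE 0.0752, edgeR adjusted p = 0.0142). CNN3, the acidic calponin, had 1266 and 1260 CPM in Ctrl, between its 1093 and 1608 CPM in PRMT3-KD. TAGLN2 had 845 and 842 CPM in Ctrl, between its 677 and 895 CPM in PRMT3-KD. These 2 relatives therefore overlapped between the groups, with log2 fold changes of 0.10 and -0.10 (edgeR adjusted p = 0.757 and 0.662).

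As levels can be set side by side between genes only per length of transcript, CPM was divided by the length of the canonical transcript in kb. On this scale ACTB led the members in Ctrl with 5508 ± 53.0 CPM per kb (SD, n = 2), followed by ACTG1 with 3365 ± 67.9 and the myosin light chain MYL6 with 1439 ± 38.2. FLNA (902.7 ± 15.6), TPM1 (835 ± 8.70), CFL1 (778 ± 1.27) and TPM4 (772 ± 7.71) came next, and CFL1 and TPM4 differed by less than the spread of TPM4. ACTA2 stood 32nd of 43 with 17.3 ± 0.863, ACTG2 36th with 12.6 ± 0.644 and CNN1 41st with 2.80 ± 0.0834, above TNS1 and FLNC at the bottom of the order. By the mean of the 2 PRMT3-KD libraries these places were 21, 23 and 33. ACTA2 had 39.8 CPM per kb in PRMT3-KD library 1 and 121.6 in library 2, and ACTG2 had 58.95 and 62.29. The order of ACTA2 and ACTG2 thus differed between these libraries. ACTA2 and ACTG2 together made up 0.327% and 0.344% of the CPM per kb of the 4 actins in Ctrl against 0.935% and 1.33% in PRMT3-KD. CNN1 made up 0.332% and 0.346% of that of the 3 calponins in Ctrl and 1.27% and 2.22% in PRMT3-KD. The smooth muscle forms were thus a small share of their families in both groups, and a larger share in both PRMT3-KD libraries than in either Ctrl library.

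Of the 14 adhesion linkers and cross-linkers, which tie filaments to integrin adhesions or to each other, 1 rose and none was called lower. Over all genes tested, 4.97% were called higher and 5.97% lower. Both PRMT3-KD libraries lay above Ctrl in 5 linkers and below in 2, beside 33.3% and 33.8% of all genes tested. ZYX (ENSG00000159840, GRCh37 chromosome 7, 143078388 to 143088204) had 640.0 and 650.0 CPM in Ctrl and 1029 and 1199 CPM in PRMT3-KD. The groups were well apart, with a log2 fold change of 0.79 (SE 0.100, edgeR adjusted p = 0.0204). PDLIM5, a PDZ and LIM domain protein that binds alpha-actinin, had 119 and 118 CPM in Ctrl and 159 and 222 CPM in PRMT3-KD. Its groups did not overlap either, and its log2 fold change of 0.69 did not pass in edgeR (SE 0.175, adjusted p = 0.0632) and passed in the same 3 alternatives as that of ACTA2. TNS1, a tensin, had 1.70 and 2.00 CPM in Ctrl and 2.64 and 5.17 CPM in PRMT3-KD, a log2 fold change of 1.08 that did not pass (SE 0.393, edgeR adjusted p = 0.125).

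ACTN4, an alpha-actinin, and PDLIM7 also had both PRMT3-KD libraries above Ctrl, with log2 fold changes of 0.36 and 0.24 (edgeR adjusted p = 0.182 and 0.246). FLNC, the muscle filamin, had 19 counts in each Ctrl library and 8 and 17 in PRMT3-KD, and CSRP2, a LIM protein of smooth muscle, had 26.4 and 24.8 CPM in Ctrl and 23.5 and 21.4 CPM in PRMT3-KD. These were the 2 linkers with both PRMT3-KD values below Ctrl, at log2 fold changes of -0.57 and -0.19 (edgeR adjusted p = 0.380 and 0.248). The other 7 overlapped between the groups. They were the vinculin gene VCL (log2 fold change 0.33), the talin gene TLN1 (-0.27), the tensin gene TNS3 (0.11), FLNA (0.17), the alpha-actinin gene ACTN1 (0.02), the LIM protein gene CSRP1 (0.29) and TGFB1I1 (-0.39), which encodes Hic-5. For VCL, TNS3, FLNA, ACTN1 and CSRP1 the Ctrl values lay between those of PRMT3-KD library 1, the lower, and PRMT3-KD library 2, the higher.

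None of the 5 myosins and myosin regulators passed the threshold in edgeR, and PPP1R12A and MYL6 were those at an unadjusted p under 0.05. MYL6, the essential light chain, had 1038 and 999.7 CPM in Ctrl and 1175 and 1343 CPM in PRMT3-KD, with a log2 fold change of 0.31 (edgeR adjusted p = 0.0933). PPP1R12A, the targeting subunit of myosin phosphatase, had 172 CPM in each Ctrl library and 103 and 135 CPM in PRMT3-KD. It was the member with the lowest adjusted p among those whose PRMT3-KD values were below Ctrl, at a log2 fold change of -0.53 (SE 0.145, edgeR adjusted p = 0.0732). MYLK, myosin light chain kinase, had 306 and 315 CPM in Ctrl and 127 and 358 CPM in PRMT3-KD. One PRMT3-KD library thus lay far below and the other above Ctrl, and its log2 fold change of -0.35 (SE 0.495, edgeR adjusted p = 0.643) became -1.29 without PRMT3-KD library 2 and 0.21 without PRMT3-KD library 1. The heavy chain genes MYH9 and MYH10 of non-muscle myosin II overlapped between the groups as well, with log2 fold changes of 0.11 and 0.09.

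The 6 tropomyosins and thin filament genes had no member past the threshold and none at an unadjusted p under 0.05 in edgeR. TPM1 had 1024 and 1009 CPM in Ctrl and 1108 and 1484 CPM in PRMT3-KD, a log2 fold change of 0.35 (edgeR adjusted p = 0.184). TPM3 was close to Ctrl, with 616 and 589 CPM in PRMT3-KD against 582 and 568 CPM. TPM2, the beta tropomyosin, had 17.3 and 17.1 CPM in Ctrl and 12.0 and 16.9 CPM in PRMT3-KD. PRMT3-KD lay above Ctrl for TPM1 and TPM3 and below it for TPM2, in each case with 1 library near Ctrl. TPM4 (log2 fold change -0.09), CALD1 (0.27), the caldesmon gene, and SMTN (-0.11), the smoothelin gene, overlapped. CALD1 had 1129 and 1131 CPM in Ctrl, between 915 CPM in PRMT3-KD library 1 and 1810 CPM in library 2.

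SRF, MKL1 and MKL2 each had both PRMT3-KD libraries above Ctrl, as 33.3% of all genes tested did, and none of the 3 passed the threshold in edgeR. SRF had 130 and 123 CPM in Ctrl and 134 and 183 CPM in PRMT3-KD, a log2 fold change of 0.33 (edgeR adjusted p = 0.227). MKL1 had 57.6 and 60.2 CPM in Ctrl and 63.5 and 70.0 CPM in PRMT3-KD, a log2 fold change of 0.18 (edgeR adjusted p = 0.209). MKL2 had 37.0 and 35.4 CPM in Ctrl and 42.1 and 51.1 CPM in PRMT3-KD, a log2 fold change of 0.37 (edgeR adjusted p = 0.109) with an unadjusted p of 0.0361. For SRF and MKL1 the lower PRMT3-KD value lay near the higher Ctrl value. These are levels of mRNA, and the activity and place in the cell of the coactivators were not measured in these libraries.

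RHOB, which encodes a small GTPase, passed by adjusted p and stayed under 1.5-fold. It had 99.7 and 102 CPM in Ctrl and 134 and 151 CPM in PRMT3-KD, a log2 fold change of 0.50 (SE 0.0885, edgeR adjusted p = 0.0328). ROCK2 had 108 and 106 CPM in Ctrl and 128 and 133 CPM in PRMT3-KD, and its log2 fold change of 0.29 did not pass, either by size or by adjusted p (SE 0.0702, edgeR adjusted p = 0.0594). Both genes had tight pairs that did not overlap. RHOA and ROCK1 overlapped between the groups with log2 fold changes of 0.07 and -0.05. The cofilin genes CFL1 and CFL2 had log2 fold changes of 0.11 and -0.05 (edgeR adjusted p = 0.436 and 0.749), with CFL1 at 968 and 969.9 CPM in Ctrl and 979.7 and 1107 CPM in PRMT3-KD.

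The members differed between the PRMT3-KD libraries in 1 direction. PRMT3-KD library 2 was higher than library 1 in 40 of 43 members, beside 46.4% of all genes tested, with a median difference of 0.40 on the log2 scale beside -0.03 over all genes tested. The median log2 difference from Ctrl was 0.0162 in library 1 and 0.37 in library 2. The differences were widest for ACTA2 (1.60), MYLK (1.49), CNN1 (1.18) and CSRP1 (1.03). For ACTG2 and CNN2 they were 0.08 and 0.10, beside 0.10 and 0.02 between the Ctrl libraries for the same 2 genes. The Ctrl libraries differed by at most 0.19 in any member. TPM3, CSRP2 and SMTN were the members that were lower in library 2. The 43 members took 4.54% and 4.59% of all counts in the Ctrl libraries, 4.81% in PRMT3-KD library 1 and 6.09% in library 2, and ACTB alone took 1.0%, 1.02%, 1.19% and 1.45%. PRMT3 itself had 3.03 CPM in library 1 and 1.58 CPM in library 2. The members are not independent of each other and the comparison is between 2 libraries, so it has no test.

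**Figure D4:**
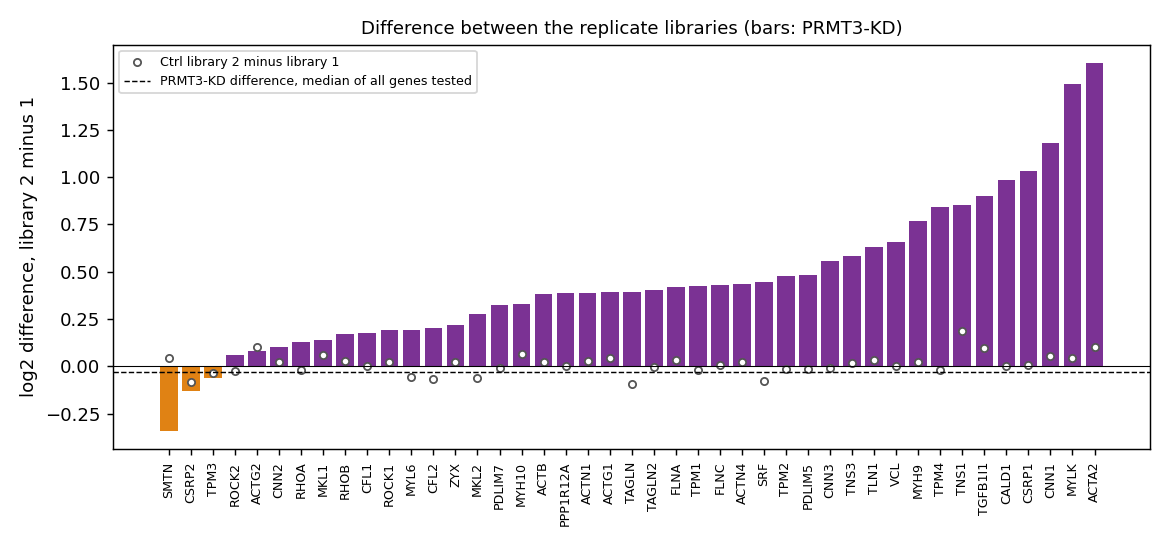
Bars give the log2 difference of PRMT3-KD library 2 minus library 1 for each of the 43 genes, in order, open circles the same difference between the Ctrl libraries, and the dashed line the PRMT3-KD median over all genes tested (-0.03). Of the bars 40 point up, from 0.06 for ROCK2 to 1.60 for ACTA2, and the circles stay within 0.19 of 0.

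A CArG box lay in the RefSeq promoter of 11 of the 41 members that have one in the table, in 11 of 81 member promoters (13.6%) and in 454 of all 35116 promoters (1.29%). The set was named in part for the SRF and MRTF program. The larger share among its members therefore follows in part from how the set was chosen. The motif reads the same on both strands. ACTB and TAGLN had no entry. Besides ACTG2, CNN2, ACTG1, MYLK and SRF, the genes with a box were TPM4, SMTN, FLNA, ACTN1, TGFB1I1 and ROCK2. Of the 4 members called higher that have a promoter entry, ACTG2 and CNN2 held a box and CNN1 and ZYX did not, and of the other 37 members 9 did. The median log2 fold change was 0.17 for the 11 members with a box and 0.15 for those without. Over all 163 genes tested that have a box, 7.36% were called higher and 7.98% lower, beside 4.80% and 6.03% of all genes tested with a promoter entry. The median log2 fold changes were 0.07 and 0.0056. The search took exact matches only, and only from 250 bases before to 50 bases after the start. Boxes with a changed base, or outside this window, were not counted. The lack of a match therefore does not show that a gene has no CArG box. A match is a run of letters, and binding of SRF was not measured.

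**Figure D5:**
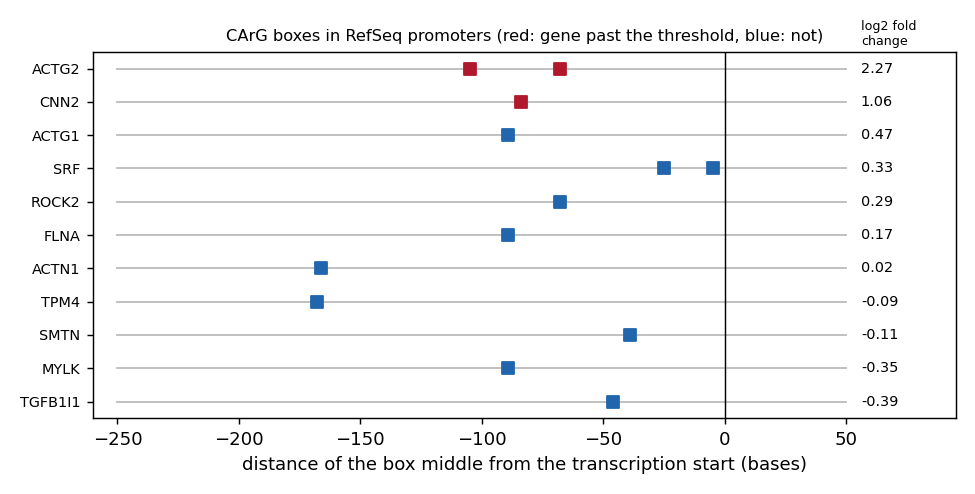
Each line is the promoter window of 1 of the 11 members with a CArG box, from 250 bases before to 50 bases after the transcription start at 0, and squares mark the middle of each box, in red for genes past the threshold and in blue for the others. The log2 fold change at the right runs from 2.27 for ACTG2 to -0.39 for TGFB1I1, and all 13 boxes lie upstream of the start.

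Related genes that are not members were counted from lists by role. Of 15 other SRF and MRTF targets, 3 rose and 1 fell, beside 4.97% called higher and 5.97% lower over all genes tested. ANKRD1, a cardiac ankyrin repeat protein, had 119 and 121 CPM in Ctrl and 404 and 304 CPM in PRMT3-KD, a log2 fold change of 1.56 (edgeR adjusted p = 0.0172). FBLIM1, which binds filamin and kindlin (0.82), and MYL12A, a regulatory light chain of non-muscle myosin (0.68), rose as well. MICAL2, an enzyme that oxidises actin and is also among the regulators of SRF, fell by 0.70 on the log2 scale (edgeR adjusted p = 0.0462). Unlike ACTA2 and CNN1, ANKRD1 was higher in PRMT3-KD library 1 than in library 2. CYR61 and CTGF, secreted matrix proteins that SRF and YAP can both drive, had log2 fold changes of 0.52 and 0.60 and did not pass (edgeR adjusted p = 0.163 and 0.0995).

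Of 11 immediate early genes that SRF drives with TCF cofactors rather than MRTF, 3 rose in the edgeR fit and 2 with RLE factors. The share of all genes called higher in the edgeR fit was 4.97%. FOS rose by 3.42, FOSB by 2.08 and DUSP1 by 1.30 on the log2 scale (edgeR adjusted p = 0.0495, 0.0142 and 0.0283). The counts of FOS were 21 and 22 in Ctrl against 89 and 376 in PRMT3-KD, so its PRMT3-KD values differed as widely as those of ACTA2. FOSL1, which encodes another partner of Jun proteins, had 5249 and 5238 counts in Ctrl against 3545 and 1706 in PRMT3-KD, both lower, and its log2 fold change of -0.93 did not pass (edgeR adjusted p = 0.179). DESeq2 and limma-voom each called 1 gene of the list lower. EGR1 had 559 and 591 counts in Ctrl against 552 and 1536 in PRMT3-KD and did not pass (edgeR adjusted p = 0.236). The 7 SRF cofactors and regulators had MICAL2 as the single gene past the threshold, beside 5.97% of all genes tested that were called lower. Myocardin (MYOCD), the SRF coactivator of smooth and heart muscle, had 36 and 30 counts in Ctrl against 5 and 22 in PRMT3-KD, with an edgeR adjusted p of 0.215.

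Of 35 genes of the Arp2/3 complex, its activators and actin turnover, WASL (log2 fold change 0.85), WASF3 (0.73) and the cortactin gene CTTN (0.60) rose and the kinase gene LIMK2 (-0.60) fell. Of 30 other adhesion and Z-line genes, FBLIM1, VASP (0.72), which elongates filaments together with zyxin at adhesions, and the focal adhesion kinase gene PTK2 (0.62) rose, while the paxillin gene PXN (-0.92) fell. Of 15 other myosin and calmodulin genes, MYL12A and MYO1E (0.76) rose and none was called lower. The shares called in these lists stand beside 4.97% higher and 5.97% lower over all genes.

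Of 13 other smooth muscle markers listed, 9 were tested and JPH2, which encodes a junctophilin, was the single one called. Its log2 fold change was 0.62 (edgeR adjusted p = 0.0305), and 4.97% of all genes tested were called higher. No gene of the list was called higher with library totals only, and 2 were with DESeq2 and with limma-voom. The heavy chain gene MYH11, which defines differentiated smooth muscle, had 4 and 8 counts in Ctrl against 9 and 5 in PRMT3-KD, and DES, the desmin gene, had 3 and 4 counts in Ctrl against 0 and 18 in PRMT3-KD. The summed level of this list was 194 CPM in each Ctrl library and 202 and 252 CPM in the PRMT3-KD libraries, and none of its genes was at 0 in all 4 libraries. Mural and fibroblast markers had no gene called of 11 tested in edgeR, 3 higher at an unadjusted p under 0.05, and 2 called higher with DESeq2. Of these 11, 10 had log2 fold changes above 0, beside 6649 of the 13172 genes tested, with a median of 0.60. In 7 of them both PRMT3-KD libraries lay above Ctrl, beside 33.3% of all genes tested. The sum of these markers, in which COL1A2 takes most counts, was 3651 and 3667 CPM in Ctrl and 3852 and 6796 CPM in PRMT3-KD. The sum was thus high in PRMT3-KD library 2, as ACTA2 and CNN1 were, but it mostly follows COL1A2, at 3703 and 6522 CPM in PRMT3-KD. Of the 11 markers tested, 8 were higher in PRMT3-KD library 2 than in library 1, beside 46.4% of all genes tested. RGS5, ABCC9 and KCNJ8 were lower in library 2. The part of the mural and fibroblast markers in the members' values was not tested.

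Of the sarcomere and skeletal muscle markers, 7 were listed and 3 tested, with none called, and their sum was 38.5 and 38.7 CPM in Ctrl and 32.7 and 58.0 CPM in PRMT3-KD. TNNT1, with 750 to 1599 counts per library, made up most of it. Of 9 listed glial and glioblastoma line markers, 8 were tested and none was called in edgeR, with 2 lower at an unadjusted p under 0.05. DESeq2 and limma-voom each called 2 of them lower, and the fit with the replicate block 1. VIM, NES, SOX2 and CD44 were present in all libraries, with at least 3359 counts each, and AQP4 had at most 1 count. The astrocyte filament gene GFAP had 363 and 392 counts in Ctrl against 32 and 153 in PRMT3-KD, a log2 fold change of -2.03 (edgeR adjusted p = 0.0958). FABP7, a fatty acid binding protein of radial glia, had 961 and 922 counts in Ctrl against 373 and 678 in PRMT3-KD, a log2 fold change of -0.82 (edgeR adjusted p = 0.0882). The part of these markers in the members' values was not tested. The sum of this list was 8447 and 8432 CPM in Ctrl and 7399 and 7875 CPM in PRMT3-KD.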

How the data were processed

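The authors aligned RNA-seq reads of the 4 U251 libraries to hg19 with TopHat and generated unnormalized gene counts with Cufflinks. Versions and annotation are not given in the sources used here. The deposited table held counts for 15576 rows, of which 1 duplicate was removed. Groups and replicate numbers were taken from the labels. The members, lists and tests were chosen with earlier results of these data known, and every member is accounted for. Results of 1 list of related genes are not reported here. The test was edgeR 4.0.16 in R 4.3.3 (filterByExpr with a minimum count of 10 and total of 15, TMM, glmQLFit, glmQLFTest), with Benjamini-Hochberg adjustment over 13172 genes. The fit was also run on simulated counts with equal or unequal spread between the groups. The simulated spread was not that of these libraries, so the run does not give the rate of false calls here. Alternatives were DESeq2 1.42.0, limma-voom (limma 3.58.1), other scalings, filters and fold thresholds, a replicate block and leaving out each library. Coordinates, transcript lengths and overlaps came from GENCODE v44lift37 (GRCh37) and promoters from RefSeq (GRCh38.p14), with 43 members matched by Ensembl ID. Per-library log2 values used CPM + 0.5. The SE of a log2 fold change was taken as its absolute size divided by the square root of the F statistic of the edgeR test. With 2 libraries per group, an exact permutation test cannot go below p = 0.333.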

Additional observations from a re-analysis of the deposited data

How the results depend on the processing

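The 5 members called higher were called in each of the 8 other fits on all 4 libraries, and no member was called lower in any of them. Over all genes 1441 passed the threshold, 2278 with no fold threshold and 512 with over 2-fold. Leaving out 1 library gave 0 to 3066 genes, 0 to 14 members higher and 0 to 4 members lower, with 0 calls without either Ctrl library. With library totals only, the median of all genes moved to -0.026, 40.9% of calls were higher against 45.5%, and ACTN1 turned to -0.014.

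The log2 fold changes of 17 members changed sign when 1 library was left out. Their ranges were -0.32 to 0.0881 for TAGLN2, -1.29 to 0.21 for MYLK, -0.57 to 0.28 for TPM4, -0.63 to 0.0122 for TLN1, -0.15 to 0.0462 for ROCK1, -0.16 to 0.0513 for CFL2, -0.21 to 0.35 for CNN3, -0.32 to 0.45 for MYH9, -0.10 to 0.25 for MYH10, -0.31 to 0.68 for CALD1, -0.29 to 0.0432 for SMTN, -0.0447 to 0.62 for VCL, -0.22 to 0.38 for TNS3, -0.0579 to 0.37 for FLNA, -0.19 to 0.21 for ACTN1, -0.32 to 0.72 for CSRP1 and -0.0047 to 0.13 for RHOA. None of the 17 was called in the fit on all libraries.

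The differences of replicate 2 minus replicate 1 correlated at 0.0222 between the groups. The Ctrl libraries differed by little more than counting error, with a chi-square per degree of freedom of 1.41. This correlation therefore cannot show whether the replicate numbers pair the libraries. With the replicate block 1464 genes passed, and ACTA2 and PDLIM5 passed beside the 5 members. DESeq2, with 1834 genes, and limma-voom with a variance for each group, with 1690, called these 7 members too. Counting error is small for most members and matters for FLNC, with at most 19 counts in a library. The spread between 2 libraries limits all tests.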
